A study of Homo sapiens with 6 samples.

Results

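The cytosolic ribosomal protein genes were followed in 5637, an established human bladder cancer cell line, 48 h after its cells had received a MAT1A plasmid or, as control, an empty vector. They were taken by symbol: names beginning RPL or RPS followed by a number, with an optional A, X or L ending, plus RPLP0, RPLP1, RPLP2 and RPSA. This gave 82 of the 13271 genes in the deposited table, 50 of the large subunit and 32 of the small subunit. RNA was sequenced in 3 libraries from cells given the MAT1A plasmid and 3 libraries from cells given the empty vector, called MAT1A and control below. Both groups share the parental line and the lipid transfection, and the sources used here do not give the promoter that drives MAT1A. MAT1A encodes the methionine adenosyltransferase of liver, which makes S-adenosylmethionine. The labels state no aim beyond this single comparison.

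The cytosolic ribosome is built from ribosomal RNA and one copy of most ribosomal proteins in each subunit, so cells hold the transcripts of these proteins at matched and high levels. The large subunit carries the peptidyl transferase centre, the tunnel through which the new protein leaves, and a stalk of acidic proteins that recruits translation factors. The small subunit reads the messenger RNA. Most of these messenger RNAs begin with a C followed by a run of pyrimidines, the 5′ terminal oligopyrimidine (TOP) tract, through which mTOR signalling and the LARP1 protein control their translation and stability. Many of the genes have processed pseudogenes, which are near-identical copies elsewhere in the genome.

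Values are given on the scale the authors deposited, which is close to CPM, the reads of a gene for each 1 M reads of a library. Depth was 18.7, 19.8 and 21.6 M reads in MAT1A libraries 1, 2 and 3, against 17.4, 19.8 and 20.7 M in the control libraries. The transfected gene stood at 1805, 1834 and 1917 in the MAT1A libraries and at 1.09, 0.253 and 4.54 in the control libraries. All 9 urothelial and epithelial markers looked for were in the table, with summed values of 8922 to 9701 in MAT1A libraries and 8558 to 8690 in control libraries. Of the 8 tested, 3 were called higher (limma, Benjamini-Hochberg adjusted p under 0.05), KRT5, KRT8 and CDH1, with log2 changes of 0.32, 0.13 and 0.15, and the median of the 8 was 0.11; the call of KRT8 was lost without MAT1A library 1 or any 1 control library (up to 0.122). The part of these genes in the ribosomal protein result was not tested. The 11 skeletal muscle genes, which a bladder line is not known to express, summed to 87.9, 44.3 and 43.3 in MAT1A libraries 1, 2 and 3 and to 447.7, 143.5 and 89.4 in control libraries 1, 2 and 3, and 10 of the 11 were called lower. Of 7 fibroblast markers 4 were listed, with sums of 121 to 129 in MAT1A and 143 to 260 in control libraries, and of 3 red cell genes HBB alone was listed, at 5.87 to 27.4 in MAT1A and 26.2 to 52.2 in control libraries. Leukocyte and endothelial markers were at 1.66 or less in sum in each library. Separate cultures are not stated for the replicates, and p-values therefore cover only the variation among these 6 libraries, part or all of which may be technical.

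The start of the transcript was read from RefSeq windows on GRCh38.p14, which were given for 67 of the 82 genes. A C followed by at least 4 pyrimidines, beginning within 5 bases of the annotated start on the transcribed strand, was present in 54 of the 67 genes (80.6%). The same run was present in 6886 of all 27305 symbols in that table (25.2%). It was found in 34 of 42 large subunit genes and in 20 of 25 small subunit genes. The windows below run from 15 bases before the annotated start to 20 bases from it, and set called and abundant genes beside paralogs. Capitals mark the pyrimidine run as counted from the annotated start. RPL17, which showed the greatest change of the called genes, and the paralogs RPS27L and RPL7L1 lacked the run. The paralogs RPL26L1 and RPL10L, whose windows are not printed, also lacked it, and the paralog RPL22L1 had it.
RPL17, chr18:49492446-49492480, minus strand: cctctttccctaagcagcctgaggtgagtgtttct
RPL39, chrX:119791611-119791645, minus strand: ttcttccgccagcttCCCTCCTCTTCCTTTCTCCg
RPL7A, chr9:133348203-133348237, plus strand: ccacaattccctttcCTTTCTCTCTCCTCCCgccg
RPLP2, chr11:809952-809986, plus strand: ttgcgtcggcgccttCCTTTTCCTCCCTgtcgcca
RPL22, chr1:6199576-6199610, minus strand: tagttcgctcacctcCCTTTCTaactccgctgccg
RPLP0, chr12:120201092-120201126, minus strand: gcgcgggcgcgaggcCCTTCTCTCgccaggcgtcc
RPS6, chr9:19380217-19380251, minus strand: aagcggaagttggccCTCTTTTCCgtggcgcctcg
RPSA, chr3:39406705-39406739, plus strand: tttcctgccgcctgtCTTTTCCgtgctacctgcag
RPL22L1, chr3:170870176-170870210, minus strand: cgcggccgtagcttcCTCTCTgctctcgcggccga
RPS27L, chr15:63157458-63157492, minus strand: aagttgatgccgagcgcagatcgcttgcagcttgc
RPL7L1, chr6:42879601-42879635, plus strand: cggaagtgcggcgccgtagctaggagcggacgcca

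Counted from the annotated start, the run spanned 19 bases in RPL39, 16 in RPL7A, 13 in RPLP2 and 6 in RPL22L1. In each printed window with a run, the base just before the start was also a pyrimidine. The unbroken stretch of pyrimidines was therefore longer than the part in capitals. Of 3 further motifs, searched on both strands of the 300 bases around the start with overlaps between motifs allowed, CCGGAAG was in 35.8% of the 67 genes against 12.2% of all symbols. TCTCGCGA was in 17.9% against 1.37%, and AAGATGG in 13.4% against 7.11%. The log2 change between MAT1A and control was similar with and without the run. Its median was 0.075 in the 54 genes with a run and 0.073 in the 12 tested genes without one. A match is a description of these letters and not a measured binding site or start.

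Divided by coding length, the level of the genes spanned from 1.07 (RPL10L) to 7849 (RPL32) per coding kb, with a median of 1250 over the 82 genes. The median was 1203 per coding kb in the large subunit and 1341 in the small subunit. The proteins themselves range from 25 amino acids in RPL41 to 427 in RPL4. RPLP1 (2850 per coding kb), RPS21 (2636), RPL41 (2621) and RPL37A (2605) followed RPL32 at the top. At the bottom, RPL10L was followed by RPS10 (7.89), RPL36A (18.6) and RPL17 (25.7). RPS10 and RPL17 code for standard proteins of the ribosome, and their listed levels were far under the median.

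How much of a gene's sequence is its own was measured as the share of its coding 36-base windows, the length of the sequenced reads, that also occur in another gene of GENCODE release 29. All 82 genes shared windows with at least 1 pseudogene, the median share was 68.2%, and in 11 genes every window was shared. RPS10, RPL36A and RPL17 were among these 11. Each of the 3 also overlaps a second annotated gene on the same strand, RPS10-NUDT3 for RPS10 (929 exonic bases), RPL17-C18orf32 for RPL17 (611) and RPL36A-HNRNPH2 for RPL36A (333). The median level was 1442 per coding kb in the 16 genes with under 25% of windows shared and 1987 in the 10 genes with 25 to 50%. It was 1357 in the 23 genes with 50 to 75% and 665 in the 33 genes with more. Across the 82 genes Spearman's rho between level and shared windows was -0.41, a description over genes measured in the same libraries. RPL41 is an exception with a high level per coding kb and every window shared. That level rests on its short coding part: its mean value was 196.6, divided by 75 coding bases within a transcript of 469 bases. Its whole coding sequence is short enough to print, from chr12:56116788-56117521 of GRCh38, plus strand. It is given as in GENCODE, without the stop codon and with the intron removed.
RPL41 coding sequence: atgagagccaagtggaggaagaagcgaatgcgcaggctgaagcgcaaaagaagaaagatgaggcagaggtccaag

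The sources used here do not say how reads with more than 1 possible place were counted. Its part in these levels was not tested, and values of genes with a high share are uncertain.

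**Figure D1:**
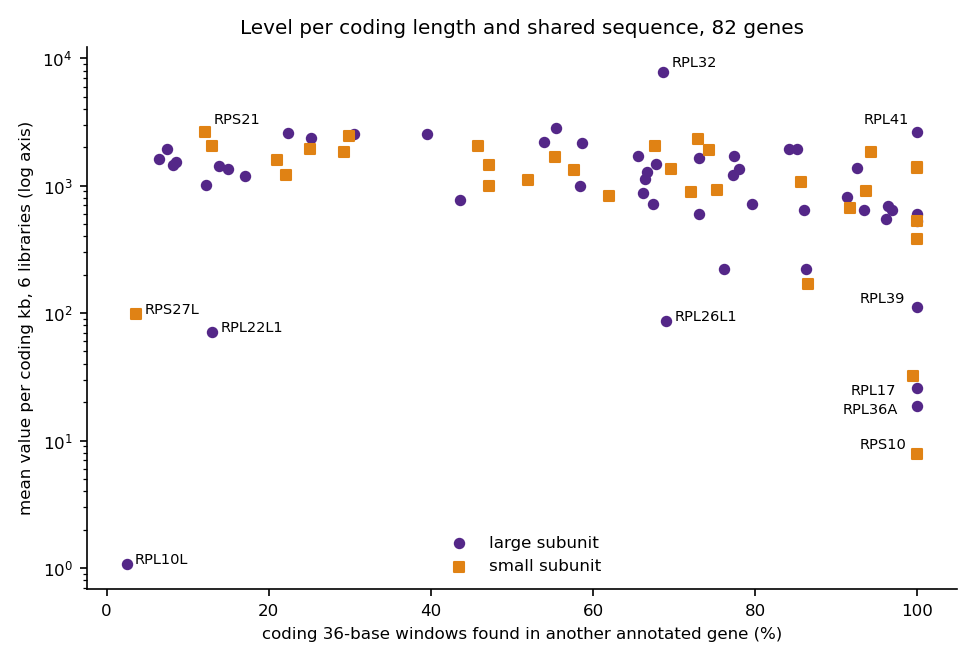
Mean value per coding kb over the 6 libraries (log axis) against the share of coding 36-base windows found in another annotated gene, 1 point for each of the 82 genes, by subunit. RPL10L lies lowest at 1.07 and RPL32 highest at 7849 per coding kb, and RPL17, RPL36A and RPS10 lie low at the right edge.

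Ribosomal protein transcripts stood slightly higher on average in MAT1A libraries than in control libraries, and they did so together. All 81 genes that passed the filter on low values had a log2 change above 0, where 51.5% of all 12866 genes tested did. With 1 library left out, 70 (without MAT1A library 2) to 81 of them were above 0, with 78 without control library 1. The 81 genes were measured in the same 6 libraries and are not replicates of each other. The median change was 0.076 over the 81 genes, against 0.004 over all genes, and the quartiles of the 81 changes were 0.059 and 0.10, against -0.080 and 0.070 over all genes. Individually, 7 genes were called higher (limma, Benjamini-Hochberg adjusted p under 0.05 over all genes) and 0 lower, which is 8.64% of the 81 beside 4.01% of all genes called higher and 7.4% called lower. At an unadjusted p under 0.05, 44 of the 81 were higher, beside 12% of all genes. RPL10L was under the filter. On recovered reads, edgeR called 6 of the 81 genes higher, beside 3.75% of all genes higher and 7.34% lower. DESeq2 called 5, beside 2.48% higher and 4.96% lower, and neither called a gene of the 81 lower.

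The large and small subunits had similar differences. Their median log2 changes were 0.074 over 49 large subunit genes and 0.077 over 32 small subunit genes. The called genes were 6 of 49 in the large subunit (RPL17, RPL39, RPL7, RPLP2, RPL7A and RPL22) and 1 of 32 in the small subunit (RPS2). The SD of the changes over genes was 0.052 in the large and 0.032 in the small subunit, beside 0.21 over all genes. In 20 of the 81 genes (24.7%) every MAT1A library exceeded every control library, beside 14.7% of all genes, 13 of them in the large subunit and 7 in the small subunit.

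**Figure D2:**
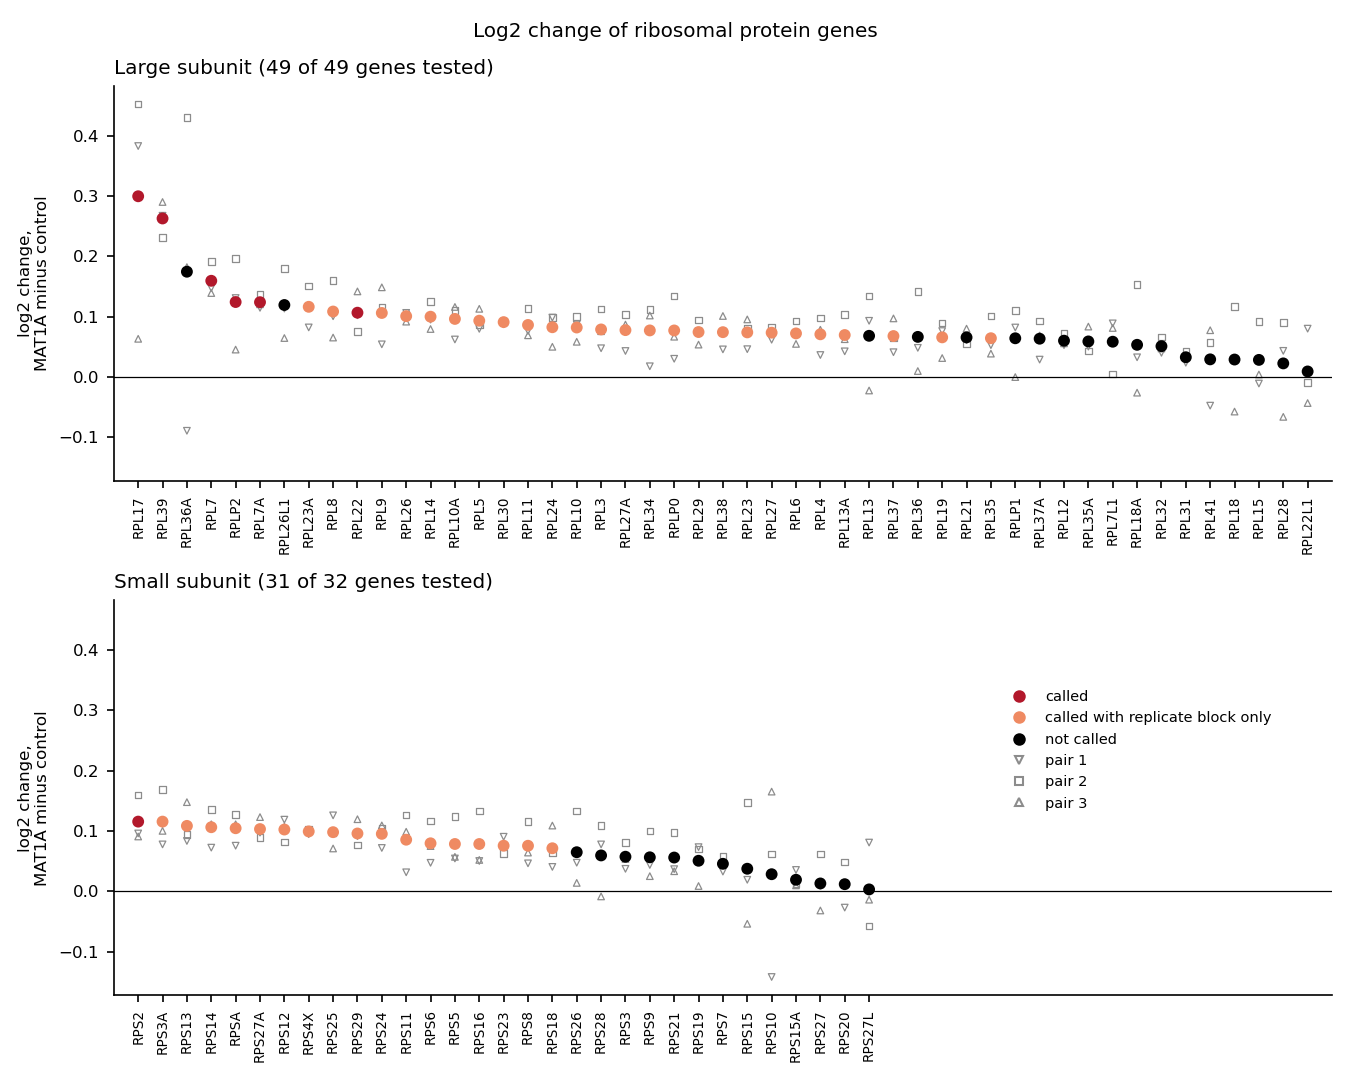
Log2 change (MAT1A minus control, on log2(value + 1)) of 80 of the 81 tested genes, sorted within the large (upper panel) and small (lower panel) subunit; filled circles are the change over 3 libraries a group, coloured by call, and open symbols are the differences within same-numbered libraries. All filled circles lie above 0, RPL17 (0.30) and RPL39 (0.26) stand above the rest, and RPS27L (0.003) lies lowest.

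The summed value of the 50 large subunit genes was 32698, 35265 and 32902 in MAT1A libraries 1, 2 and 3 and 31345, 32838 and 31501 in control libraries 1, 2 and 3. That of the 32 small subunit genes was 19596, 21248 and 19708 in the MAT1A libraries and 18788, 19777 and 18759 in the control libraries. Library 2 was the highest of its group in both sums, and the groups overlapped through control library 2. The mean difference was 5.42% for the large and 5.63% for the small subunit. On the log2 scale this was 0.076 and 0.079, and without MAT1A library 2 it was 0.040 and 0.041. The 82 genes together took 5.33% ± 0.207 of all values in MAT1A libraries and 5.10% ± 0.125 in control libraries (SD, n = 3 each). As shares of all values of a library, the mean difference was 4.34% for the large and 4.56% for the small subunit. The deposited values are relative to a scaled library size. More transcript per cell and less of other RNA therefore cannot be told apart here, nor can more cells of a kind and more RNA per cell.

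The balance of the subunits, which library scaling cannot move, was steady. The large subunit sum was 1.669, 1.660 and 1.669 times the small subunit sum in MAT1A libraries 1, 2 and 3 and 1.668, 1.660 and 1.679 times in control libraries 1, 2 and 3. The means were 1.666 ± 0.0054 in MAT1A libraries and 1.669 ± 0.0095 in control libraries (SD, n = 3 each), and the 2 ranges overlapped. The mean log2 ratio differed by -0.003, less than its SD in either group.

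**Figure D3:**
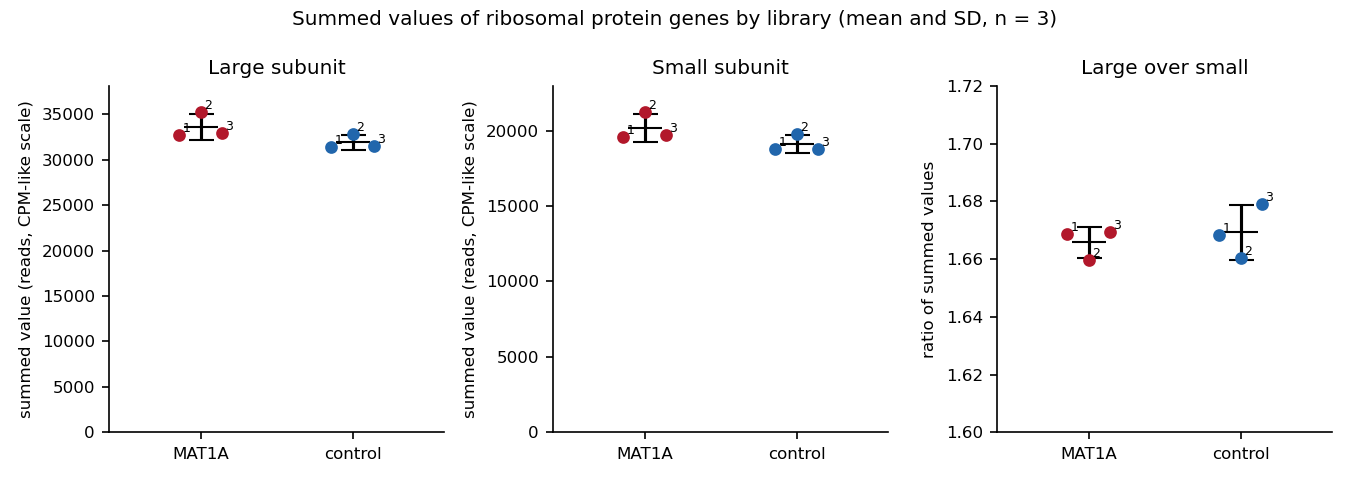
Summed values of the large subunit genes (left), of the small subunit genes (middle), both on axes from 0, and the ratio of these sums (right, an axis that does not start at 0), by library with mean and SD of 3 libraries a group; numbers beside points are replicate numbers. Library 2 is highest in both sums in each group, and the ratio lies between 1.660 and 1.679 in all 6 libraries.

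Within a library the genes tended to shift together. In MAT1A library 2, 80 of the 81 tested genes were above their own mean over the 6 libraries, with a median deviation of 0.11 on the log2 scale in both subunits. In MAT1A libraries 1 and 3 this was so for 35 and 53 genes. In control libraries 1, 2 and 3 it was so for 1, 53 and 3 genes, so control library 2 resembled MAT1A library 3 in this measure. Control library 1, with the highest summed muscle genes, had the lowest median of the large subunit genes (-0.065), and control library 3, with a muscle sum of 89.4 beside 87.9 in MAT1A library 1, had a median of -0.059. The part of the muscle transcripts in the difference was not tested.

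**Figure D4:**
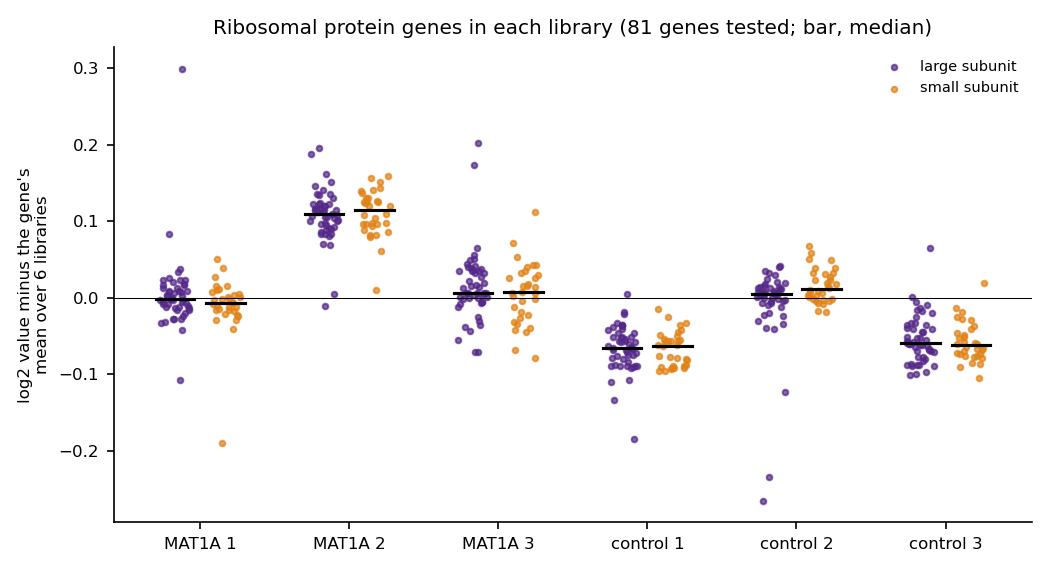
Log2 value of each of the 81 tested genes minus that gene's mean over the 6 libraries, by library and subunit, with the median as a bar. The genes of a library move as a block: MAT1A library 2 lies highest (medians of 0.11), control libraries 1 and 3 lowest (medians near -0.06), and the subunits do not part.

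Across all genes, same-numbered MAT1A and control libraries deviated together, with correlations of 0.25, 0.18 and 0.19, so the replicate number was also used as a block. With the block 49 of the 81 genes were called higher and 0 lower (limma, Benjamini-Hochberg adjusted p under 0.05), 31 of 49 in the large and 18 of 32 in the small subunit. This is 60.5% of the genes, beside 7.57% of all genes called higher and 10.4% lower. The block in edgeR gave 48, beside 7.51% of all genes. Within the same-numbered pairs the median difference of the 81 genes was 0.062, 0.10 and 0.069, and 76, 79 and 71 genes were higher in the MAT1A library. In all 3 pairs 66 of 81 genes were higher, beside 25.1% of all genes. The count rested on which pairs were used: 8 genes were called with the block and without both libraries numbered 1, 31 without those numbered 2 and 47 without those numbered 3. The counts were 9.88%, 38.3% and 58.0% of the 81. Over all genes, 320, 739 and 904 were called higher in these 3 fits, a smaller share in each. Without the block, leaving out control library 1, control library 3 or MAT1A library 2 left 1, 2 and 2 of the 81 genes called. That was 1.23%, 2.47% and 2.47% of them, beside 230, 219 and 477 of all genes tested called higher. The share of the 81 was under the share of all genes without control library 1 and without MAT1A library 2. It was above the share of all genes without control library 3. The median change stayed above 0 at 0.064, 0.065 and 0.042.

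Of the 8 genes of the tunnel exit, where the growing chain leaves the large subunit, 3 were called by limma, RPL17, RPL39 and RPL22, beside 4.01% of all genes called higher. None of the 3 was called by DESeq2 (Benjamini-Hochberg adjusted p = 0.064, 0.058 and 0.077), and RPL22 was not called by edgeR (0.056). The median log2 change of the 8 was 0.10, beside 0.076 over the 81 genes and 0.004 over all genes. With the block 7 of the 8 were called, beside 60.5% of the 81 genes and 7.57% of all genes. RPL39, a small protein that lines the tunnel, had values of 18.2, 18.5 and 19.8 in MAT1A libraries 1, 2 and 3, against 14.9, 15.6 and 16.02 in control libraries 1, 2 and 3. The groups did not overlap, and all 3 pairs differed in the same direction. RPL39 averaged 18.8 ± 0.871 in MAT1A and 15.5 ± 0.555 in control libraries (SD, n = 3 each), 21.3% higher, with a log2 change of 0.26 ± 0.065 (SE; limma, Benjamini-Hochberg adjusted p = 0.014; 0.067 without control library 1). The gene lies on chromosome X at 119786504 to 119791643 of GRCh38, minus strand, and every one of its coding windows is shared with another gene. The reads behind the values were 337, 360 and 425 in MAT1A and 260, 309 and 332 in control libraries.

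RPL17, which also lies at the tunnel exit, showed the greatest change among the 81 genes and one of the lowest levels. It had values of 17.5, 16.1 and 13.7 in MAT1A libraries 1, 2 and 3, against 13.2, 11.5 and 13.0 in control libraries 1, 2 and 3, from 228 to 325 reads a library. MAT1A library 3 was only just above control library 1, and the groups did not overlap. The mean was 15.8 ± 1.95 in MAT1A and 12.6 ± 0.924 in control libraries (SD, n = 3 each), a log2 change of 0.30 ± 0.086 (SE; limma, Benjamini-Hochberg adjusted p = 0.033). The call was lost in 5 of the 6 fits that each left out 1 library, with an adjusted p of up to 0.155 without MAT1A library 1. The gene lies on chromosome 18 at 49488453 to 49492523 of GRCh38, minus strand, and its annotated exons are shared with the readthrough gene RPL17-C18orf32, so the value is uncertain.

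RPL22, an RNA-binding protein of the ribosome's surface near the exit, had values of 254.7, 263.2 and 256.6 in MAT1A libraries 1, 2 and 3, against 237.2, 249.7 and 232.5 in control libraries 1, 2 and 3. The lowest MAT1A library lay above the highest control library. Its log2 change was 0.11 ± 0.033 (SE; limma, Benjamini-Hochberg adjusted p = 0.047), and the call was lost in 5 of the 6 fits without 1 library. The gene, at 6185020 to 6209389 on chromosome 1, minus strand, shares 96.8% of its windows. It overlaps AL031847.2 on the same strand over 231 exonic bases and RNF207 on the other strand over 243, and the library kit does not mark strand. RPL23A, the docking site of the signal recognition particle at the exit, averaged 266.7 ± 14.8 in MAT1A and 245.8 ± 8.05 in control libraries (SD, n = 3 each) and missed the threshold (log2 change 0.12; limma, Benjamini-Hochberg adjusted p = 0.064).

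RPL7, a large subunit protein that binds ribosomal RNA, was called under every omission of 1 library. Its values were 456.3, 493.7 and 460.5 in MAT1A libraries 1, 2 and 3, against 411.8, 432.1 and 418.0 in control libraries 1, 2 and 3, from 7175 to 9877 reads a library. Every MAT1A library was above every control library. The mean was 470.2 ± 20.5 in MAT1A and 420.6 ± 10.4 in control libraries (SD, n = 3 each), 11.8% higher, with a log2 change of 0.16 ± 0.034 (SE; limma, Benjamini-Hochberg adjusted p = 0.0057). No other gene of the 81 stayed called in each of those 6 fits, and its largest adjusted p in them was 0.046 (limma, Benjamini-Hochberg). It lies on chromosome 8 at 73290267 to 73295789 of GRCh38, minus strand. All of its windows are shared with other genes, among them 41 pseudogenes.

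RPL7A, another large subunit protein, had values of 1573, 1695 and 1584 in MAT1A libraries 1, 2 and 3, against 1453, 1542 and 1457 in control libraries 1, 2 and 3. The groups did not overlap, with library 2 the highest in each. The log2 change was 0.12 ± 0.035 (SE; limma, Benjamini-Hochberg adjusted p = 0.031; up to 0.161, without control library 3). RPS2, at the mRNA entry channel, was the single small subunit gene called, with 949.4, 1038 and 949.7 in MAT1A libraries against 888.1, 928.5 and 891.5 in control libraries 1, 2 and 3. Its log2 change was 0.12 ± 0.036 (SE; limma, Benjamini-Hochberg adjusted p = 0.046; up to 0.183, without control library 3), and RPS3, also at the mRNA entry, was not called. With library sizes taken without the 82 genes, RPL17, RPL39, RPL7 and RPL7A were called and RPL22, RPLP2 and RPS2 were not. Of the fits that left out 1 library, RPL17, RPLP2 and RPS2 were called only in the one without MAT1A library 3, and RPL22 only in the one without control library 2. The call of RPL7A was lost without MAT1A library 2, control library 1 or control library 3, and that of RPL39 without control library 1.

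Of the stalk proteins, RPLP2 was called, and RPLP0, RPLP1 and RPL12 were not. RPLP2 had 679.7, 748.2 and 668.9 in MAT1A libraries 1, 2 and 3, against 620.7, 652.8 and 648.1 in control libraries 1, 2 and 3, with no overlap. Only 7.42% of its windows are shared, and it overlaps PIDD1 on the other strand over 107 exonic bases. Its log2 change was 0.12 ± 0.038 (SE; limma, Benjamini-Hochberg adjusted p = 0.046; 0.209 without control library 1). RPLP1, which pairs with RPLP2 on the stalk, had 984.9, 1055 and 950.2 in MAT1A libraries and 930.3, 977.2 and 950.2 in control libraries, with overlapping groups (log2 change 0.064; limma, Benjamini-Hochberg adjusted p = 0.28). RPLP0, the base of the stalk, averaged 1664 ± 84.6 in MAT1A and 1576 ± 29.5 in control libraries (SD, n = 3 each; log2 change 0.077; limma, Benjamini-Hochberg adjusted p = 0.18).

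**Figure D5:**
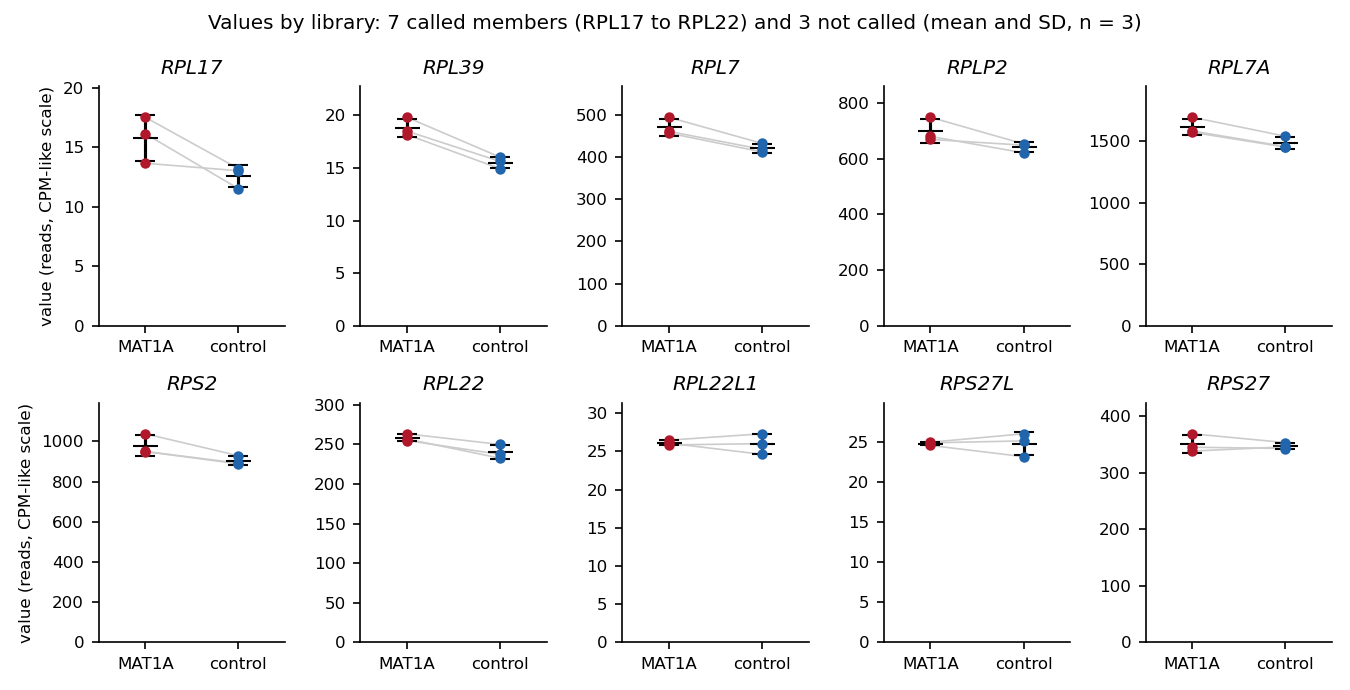
Values by library for the 7 called genes (RPL17 to RPL22) and for RPL22L1, RPS27L and RPS27, which were not called, each on an axis from 0, with mean and SD of 3 libraries a group and lines between same-numbered libraries. The MAT1A points of the 7 called genes all lie above their control points, and those of the other 3 overlap them.

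The remaining genes with known roles, described next, were not called by limma without the block on all 6 libraries. RPL5 and RPL11 travel with 5S ribosomal RNA and bind MDM2 when ribosome assembly fails. RPL5 averaged 1178 ± 40.4 in MAT1A and 1104 ± 40.2 in control libraries, and RPL11 886.3 ± 32.9 in MAT1A and 834.5 ± 17.0 in control libraries (SD, n = 3 each). Their log2 changes were 0.093 and 0.086, with limma Benjamini-Hochberg adjusted p-values of 0.088 and 0.095, and both were called with the block. RPL5 was also called with the length and GC trend removed (0.026), and RPL11 without MAT1A library 3 (0.049; both limma, Benjamini-Hochberg). A group of 6 genes joined RPL3, RPL4, RPL8, RPL10 and RPL27, listed for the peptidyl transferase neighbourhood, with RPL10A of the L1 arm. Their median was 0.081, with 0 called, and 2 were called with the trend removed, beside 6.35% of all genes called higher. All 6 were called with the block, beside 60.5% of the 81 genes and 7.57% of all genes. RPL4, whose loop reaches into the tunnel, averaged 1942 ± 71.4 in MAT1A and 1848 ± 38.2 in control libraries (SD, n = 3 each; limma, Benjamini-Hochberg adjusted p = 0.18; 0.049 with the trend removed).

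In the small subunit, RPS6, the classical substrate of S6 kinase, had 1807, 1982 and 1819 in MAT1A libraries 1, 2 and 3, against 1748, 1828 and 1727 in control libraries 1, 2 and 3. MAT1A libraries 1 and 3 were below control library 2, and the log2 change was 0.080 (limma, Benjamini-Hochberg adjusted p = 0.18; 0.0099 with the block). RPSA, the laminin receptor precursor on the mRNA exit side, averaged 609.7 ± 28.3 in MAT1A and 566.7 ± 17.7 in control libraries (SD, n = 3 each; log2 change 0.10; limma, Benjamini-Hochberg adjusted p = 0.067; 0.037 with the trend removed). The 14 genes of the head had a median of 0.075 and the 5 of the mRNA exit side 0.065, with 0 called by limma in both groups and 7 and 2 called with the block, beside 60.5% of the 81 genes and 7.57% of all genes. Of 12 genes mutated in Diamond-Blackfan anaemia, an inherited failure of red cell production, 0 were called by limma (5 at an unadjusted p under 0.05) and 5 with the block, under the share of the 81 genes (median 0.076). The most abundant transcript of all, RPL32, averaged 3235 ± 125 in MAT1A and 3122 ± 91.3 in control libraries (SD, n = 3 each; log2 change 0.051; limma, Benjamini-Hochberg adjusted p = 0.38).

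Among the paralogs, which are second genes related to a ribosomal protein gene, RPS27L and RPL22L1 had the lowest changes of the 81. RPS27L, known as a target of p53, had 24.5, 24.9 and 24.9 in MAT1A libraries 1, 2 and 3, against 23.1, 25.97 and 25.1 in control libraries 1, 2 and 3. RPL22L1 had 26.1, 25.9 and 26.5 in MAT1A libraries, against 24.6, 26.03 and 27.3 in control libraries 1, 2 and 3. In both the MAT1A values lay inside the control range, and the log2 changes were 0.003 ± 0.058 and 0.009 ± 0.056 (SE; limma, Benjamini-Hochberg adjusted p = 0.98 and 0.94). RPS27, the partner of RPS27L, averaged 351.2 ± 16.1 in MAT1A and 347.7 ± 5.43 in control libraries (SD, n = 3 each), a log2 change of 0.013. RPL22 is the partner of RPL22L1 and was called. Whether RPL22 and RPL22L1 differed in their change was not tested.

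Per coding kb RPS27L stood at 98.2 and RPS27 at 1387, and RPL22L1 at 71.2 and RPL22 at 648. Reads of these pairs can be told apart: the coding sequences of RPS27L and RPS27 were identical at 77.8% of aligned bases, those of RPL22L1 and RPL22 at 68.6%, and neither pair shared a 36-base window. The first 60 coding bases of RPS27L (within chr15:63156468-63157405 of GRCh38, minus strand) and RPS27 (within chr1:153990797-153991168, plus strand), from GENCODE, show how the differences are spread. Capitals mark the 18 bases at which they differ.
RPS27L: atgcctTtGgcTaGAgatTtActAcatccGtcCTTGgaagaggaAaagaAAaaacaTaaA
RPS27: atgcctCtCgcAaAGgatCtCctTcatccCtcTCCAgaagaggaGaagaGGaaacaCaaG

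RPL26L1 averaged 39.2 ± 1.98 in MAT1A and 36.0 ± 0.647 in control libraries (SD, n = 3 each) and its partner RPL26 100.8 ± 5.29 in MAT1A and 93.9 ± 5.03 in control libraries, with log2 changes of 0.12 and 0.10 (limma, Benjamini-Hochberg adjusted p = 0.136 and 0.169). RPL36AL, which makes nearly the same protein as RPL36A but lies outside the symbol pattern and is not among the 82 genes, averaged 164.6 ± 7.69 in MAT1A and 150.8 ± 6.30 in control libraries (SD, n = 3 each) and stood just outside the threshold (log2 change 0.13; limma, Benjamini-Hochberg adjusted p = 0.052). RPL36A itself had 5.39, 6.89 and 6.76 in MAT1A and 5.80, 4.85 and 5.84 in control libraries, with 96 to 145 reads a library and overlapping groups. RPL7L1, whose coding sequence matches RPL7 at 55.7% of aligned bases, averaged 174.2 ± 3.89 in MAT1A and 167.2 ± 4.41 in control libraries (SD, n = 3 each; log2 change 0.059; limma, Benjamini-Hochberg adjusted p = 0.28). RPL10L, the intronless copy of RPL10 known from testis, had 8, 8 and 2 reads in MAT1A libraries and 30, 21 and 8 reads in control libraries. Its partner RPL10 averaged 905.5 ± 39.2 in MAT1A and 855.1 ± 27.3 in control libraries (SD, n = 3 each; log2 change 0.082; limma, Benjamini-Hochberg adjusted p = 0.143).

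At the threshold, RPL22 (adjusted p = 0.047), RPLP2 (0.046) and RPS2 (0.046) stood just inside, and RPS13 (0.051), RPL8 (0.054) and RPS27A (0.056) just outside (limma, Benjamini-Hochberg). The median change differed little with shared sequence. The 25 tested genes with under 50% of windows shared had a median log2 change of 0.074, with 1 called (4%), RPLP2, and 15 called with the block (60%). The 56 genes with more had a median of 0.077, with 6 called (10.7%) and 34 called with the block (60.7%). Of all genes, 4.01% were called higher, and 7.57% with the block. Over the 81 genes, Spearman's rho of the change was 0.18 with shared windows, 0.013 with the mean value, 0.25 with coding length and -0.22 with GC content, descriptions over genes measured in the same libraries.

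When a trend of the change with transcript length and GC content over all genes was removed, 19 of the 81 genes were called higher and 0 lower (limma, Benjamini-Hochberg adjusted p under 0.05), beside 6.35% of all genes called higher and 8.58% lower. The median of the 81 genes was then 0.054, 0.062 in the large and 0.044 in the small subunit, and 71 of 81 were above 0. The 10 genes below 0 included RPS27 (-0.017), RPL41 (-0.003) and RPS20 (-0.005).

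Each library was also scaled by its own sum over the 82 genes, which asks which of them moved relative to the others. The median change of all genes was then -0.068, and 0 of the 81 genes were called (limma, 3 at an unadjusted p under 0.05), beside 0.745% of all genes called higher and 9.11% lower. With the replicate block on this scale 3 genes were called, RPL7, RPL39 and RPL17 (limma, Benjamini-Hochberg adjusted p = 0.019, 0.033 and 0.028), beside 1.85% of all genes called higher and 24.5% lower. Their log2 changes relative to the sum were 0.083, 0.19 and 0.23. No gene of the 81 was called lower on this scale, and RPS20 (-0.064) and RPS27 (-0.063) had adjusted p-values of 0.067 and 0.092 with the block (limma, Benjamini-Hochberg).

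Other genes of the ribosome pathway were read from lists. Besides RPL36AL, FAU and RACK1 code for ribosomal proteins whose symbols do not follow the pattern. FAU, which makes RPS30 fused to a ubiquitin-like protein, had 510.1, 547.0 and 490.8 in MAT1A libraries 1, 2 and 3, against 461.6, 479.6 and 454.0 in control libraries 1, 2 and 3, with no overlap. It was called with a log2 change of 0.15 ± 0.037 (SE; limma, Benjamini-Hochberg adjusted p = 0.016; 0.103 without control library 3 and 0.074 without control library 1). RACK1, a scaffold on the small subunit, averaged 1578 ± 57.4 in MAT1A and 1492 ± 18.4 in control libraries (SD, n = 3 each), a log2 change of 0.080 that did not pass (limma, Benjamini-Hochberg adjusted p = 0.117).

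Of 19 other messenger RNAs known to carry a TOP tract, 2 were called higher and 0 lower, beside 4.01% and 7.4% of all genes. The median log2 change was 0.058. The 2 were NACA, a subunit of the nascent polypeptide-associated complex, with 570.8 ± 17.3 in MAT1A and 521.0 ± 23.8 in control libraries, and EEF1B2, the exchange factor of elongation factor 1, with 551.8 ± 17.9 in MAT1A and 513.7 ± 14.6 in control libraries (SD, n = 3 each). Their log2 changes were 0.13 and 0.10 (limma, Benjamini-Hochberg adjusted p = 0.022 and 0.0498). The call of NACA was lost without control library 1 or 3 (up to 0.144), and that of EEF1B2 without control library 1 or 3 or MAT1A library 1 or 2 (up to 0.203; limma, Benjamini-Hochberg). Of 44 ribosome biogenesis genes, 7 were called higher and 0 lower, with a median of 0.074, beside 4.01% of all genes called higher. They included NOP10, of the H/ACA particle that makes pseudouridine (log2 change 0.17), NOP56, of the C/D particle that methylates ribosomal RNA (0.15), and NOLC1, a nucleolar phosphoprotein (0.13), with limma Benjamini-Hochberg adjusted p-values of 0.0061, 0.009 and 0.015. NOP56 was lost without control library 1 (0.061), and NOLC1 without control library 1 or 3 or MAT1A library 1 (up to 0.103; limma, Benjamini-Hochberg).

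Of 20 genes of RNA polymerase I and its factors, which transcribe ribosomal RNA, 1 was called higher (POLR2F, a shared subunit, 0.14) and 1 lower (TAF1D, of the promoter selectivity factor, -0.24). Their median was 0.008, and 4.01% of all genes were called higher and 7.4% lower. The call of POLR2F was kept only without MAT1A library 3 among the fits that left out 1 library. None of 23 regulators of ribosomal protein messenger RNA was called by limma (median 0.014, 2 at an unadjusted p under 0.05). With the block 1 of the 23 was called lower, beside 10.4% of all genes. It was MYC, a transcription factor that drives ribosome genes, with 282.0 ± 10.02 in MAT1A and 301.8 ± 7.13 in control libraries (SD, n = 3 each; log2 change -0.098; limma, Benjamini-Hochberg adjusted p = 0.067, and 0.016 with the block). With the trend removed MYC was called lower and EIF4EBP2, a translation repressor under mTOR, higher (limma, Benjamini-Hochberg adjusted p = 0.00097 and 0.036). Of all genes, 8.58% were then called lower and 6.35% higher. None of 12 carriers that escort new ribosomal proteins was called by limma (median 0.084, 5 at an unadjusted p under 0.05). With the block 4 were called higher, beside 7.57% of all genes. Of 43 tested ribosomal protein pseudogenes, 0 were called higher and 2 lower, RPL12P14 and RPSAP52, beside 4.01% of all genes called higher and 7.4% lower. RPL12P14 passed the filter on low values only through its control libraries. The median log2 change of the 43 was -0.019. The call of RPSAP52 was lost in 5 of the 6 fits without 1 library (limma, Benjamini-Hochberg adjusted p up to 0.147).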

How the data were processed

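Total RNA of 6 samples was sequenced unstranded with 36-cycle reads, 3 libraries a group, grouped by sample title. The authors deposited 1 table of signal values, which are gene reads on a CPM-like scale set by a scaled library size. STAR 2.6.0c, featureCounts, edgeR and hg38 appear in the submitters' processing notes; the sources used here give neither the annotation nor any setting. Every value was a whole multiple of 1 read to within 0.01 read, so reads could be recovered; the lowest row total was 25 reads, and 0 mitochondrially encoded genes were listed. Because PCR copies are not independent molecules, read counts cover counting error only.

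The test planned for scaled values was used: limma 3.58.1 (R 4.3.3) with an intensity trend on log2(value + 1), for the 12866 genes at 1 or more in 3 or more libraries, Benjamini-Hochberg adjusted over all of them and called at an adjusted p under 0.05. A pseudocount understates changes of low genes. The procedure was tested on simulated data, with genes drawn independently and changes larger than those of the members. That test therefore does not cover small changes shared by many genes. No test was made over the members together. Alternatives were edgeR 4.0.16 and DESeq2 1.42.0 on recovered reads, other scalings, filters and pseudocount, a length and GC trend (spline), a block for the replicate number and omission of each library. Same-numbered libraries share only a number in the titles. The pairing comes from the data (correlations of deviations of 0.25, 0.18 and 0.19 over all genes, and of 0.044, 0.0097 and 0.10 over the 81 members, where a shift common to all members does not count). Between libraries of unlike number these ran from -0.17 to -0.025 over all genes. Each gene was centred within its group, so positive same-numbered correlations force negative ones elsewhere, and the negative ones add no support to the pairing. Over the members the correlations between libraries of unlike number ran from -0.26 (MAT1A 2 with control 3) to 0.27 (MAT1A 2 with control 1). The members by themselves therefore do not single out the same-numbered pairs. Chi-square per degree of freedom between libraries of a group was 1.86 to 4.39, so no 2 libraries agreed within sampling noise.

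Positions, coding lengths and shared windows are from GENCODE 29 on GRCh38, which matched 13263 of 13271 symbols, and start windows are from RefSeq. Named genes are those called, the 4 with the highest mean, members of fixed roles, paralogs with their partners, and up to 3 called genes of each list per direction; other genes were named after their values were seen. Values of 2 genes that were looked at are not reported here. The members, lists and tests were chosen with earlier results of these data known.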

Additional observations from a re-analysis of the deposited data

How the results depend on the processing

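The count of called genes over all genes (1468) was 2310 with the replicate block, 2492 with the block and the length and GC trend removed, 2333 with edgeR and the block, 957 with DESeq2, and 749 to 1656 when 1 library was left out. Large subunit genes called (6) were 31 with the block, 12 with the trend removed, 26 with both, 30 with edgeR and the block, and 1 of those with under 50% shared windows. They were 0 when libraries were scaled by the summed members and 3 on that scale with the block, and 1 to 8 without 1 library. With the block and without replicate number 1, 2 or 3, the large subunit counts ran from 4 to 29. Small subunit genes called (1) were 18 with the block, 7 with the trend removed, 13 with both, 18 with edgeR and the block, 2 with a filter of at least 5, and 0 with library sizes taken without the members, with either scaling by the summed members, and among genes with under 50% shared windows. They were 0 to 4 without 1 library, and 4 to 18 with the block and without 1 replicate number.

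Scaled by the summed members, the median log2 change was -0.0020 in the large and 0.00077 in the small subunit, by the construction of that scale. The large minus small median (-0.0029) was 0.018 with the trend removed, with and without the block, and ran from -0.0057 to 0.0053 without 1 library, above 0 without MAT1A library 2. The log2 ratio of the sums (-0.0030) ran from -0.0068 to 0.0013, above 0 without control library 3. Turned below 0 were RPL22L1 (-0.0015 with library sizes without the members; -0.028 to 0.044 without 1 library), RPS27L (-0.0074 with those library sizes, -0.0017 with edgeR, -0.00078 with DESeq2; -0.042 to 0.038 without 1 library) and RPS27 (-0.017 with the trend removed, with and without the block; -0.023 to 0.039 without 1 library). The cause was not tested in these cases. edgeR with the block, the member-sum scaling, the shared-window limit and the block without a replicate number were added after the data were seen. The deposited scale cannot show a change in total RNA per cell, and 3 libraries a group limit what the small changes of about 5% can show.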

Other observations

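The table listed 49 rows named as ribosomal protein pseudogenes, of which 6 were under the filter on low values. RPSAP52 had 8.57, 7.14 and 8.07 in MAT1A libraries 1, 2 and 3 and 9.41, 10.5 and 9.65 in control libraries 1, 2 and 3, and was called lower (log2 change -0.28; limma, Benjamini-Hochberg adjusted p = 0.042). RPL12P14 had 0.431, 0.822 and 0.699 in MAT1A libraries and 1.55, 1.57 and 1.83 in control libraries (log2 change -0.69; limma, Benjamini-Hochberg adjusted p = 0.0035), low values near the filter. Its MAT1A values were all under 1, so it passed the filter only through its control libraries. Its call is therefore no support for a difference.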
